A study of Mus musculus with 6 samples.

Results

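The genes of sphingosine-1-phosphate (S1P) metabolism, export and sensing were examined in cells labelled as peritoneal endothelial cells (ECs) of mice given peritoneal dialysis (PD) fluid or saline. The set holds 10 genes of the 22183 in the count table, taken by exact match of the gene symbol, and each symbol had 1 row. They are the sphingosine kinases Sphk1 and Sphk2, the S1P lyase Sgpl1, the S1P phosphatase Sgpp1, the exporter Spns2 and the receptors S1pr1, S1pr2, S1pr3, S1pr4 and S1pr5. All 10 passed the filter on low counts and were tested.

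The study compared wild-type male C57BL/6J mice, aged 8 to 10 weeks by its methods, that received daily intraperitoneal injections for 6 weeks. The PD fluid group (n = 3) received Dianeal, a glucose-based dialysis solution, and the sham-operated saline group (n = 3) received saline by the same route. The question was how ECs of the peritoneum change under dialysis fluid. The labels describe magnetic sorting of CD31+ cells from peritoneal tissue, whereas the methods describe digestion of the mesentery and a flow sort of CD31+ CD45- cells.

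S1P is a signalling lipid made inside cells by phosphorylation of sphingosine. It is carried out of ECs by Spns2, and is either dephosphorylated by phosphatases or split irreversibly by the lyase. Outside the cell it acts on G protein-coupled receptors, of which S1pr1 tightens endothelial junctions through Gi and Rac, while S1pr2 can loosen them through G12/13. S1pr1 also guides lymphocytes out of lymphoid organs along the S1P gradient, and S1pr4 is known mainly from blood and immune cells.

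Gene counts summed to 21973426 to 26374292 per library. Counts scaled by edgeR's TMM method are given as CPM, counts divided by the scaled library size, and levels of different genes are compared only as the authors' FPKM, which divides by length. The libraries held RNA of several cell types, and leukocyte markers went against the EC label. The EC gene Pecam1, which encodes CD31, had a CPM of 469 ± 19.4 under saline and 514 ± 7.85 under PD fluid (SD, n = 3 each), and Cdh5, which encodes VE-cadherin, was at 18.9 ± 2.72 and 33.3 ± 1.03 CPM. Ptprc, which encodes CD45, was present in all 6 libraries, and its CPM was 2373 ± 127 under saline and 1473 ± 63.6 under PD fluid. Per length, Ptprc was at 624 ± 30.2 FPKM under saline and 392 ± 7.73 under PD fluid, above Pecam1 (145 ± 4.44 and 158 ± 5.11) and Cdh5 (4.72 ± 0.715 and 8.37 ± 0.365). The 7 B cell markers summed to 5922 to 6238 CPM under saline and 2763 to 2783 CPM under PD fluid, and all 7 fell (edgeR's quasi-likelihood test, Benjamini-Hochberg adjusted p under 0.05). Of the 12 endothelial markers 11 rose, with sums of 1112 to 1118 against 1828 to 1949 CPM, and all 7 lymphatic endothelial markers rose, with sums of 227 to 248 against 1041 to 1185 CPM. Macrophage and dendritic cell markers rose in 8 of 9 (2064 to 2179 against 8133 to 8747 CPM), fibroblast markers in 7 of 7 (92.2 to 100 against 832 to 862 CPM), mesothelial markers in 8 of 8 (15.1 to 19.1 against 161 to 188 CPM), and pericyte and smooth muscle markers in 8 of 8 (277 to 297 against 441 to 491 CPM). Markers of lymphatic, myeloid, mesothelial and stromal cells were therefore higher in PD mice, and those of B cells were lower. All 9 pancreatic acinar markers rose, from sums of 2.23 to 5.81 CPM to sums of 7094 to 7985 CPM. No marker of these lists was at 0 in all 6 mice. In such bulk samples, fewer cells of a type and less RNA per cell cannot be told apart.

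In PD mice 6 of the 10 S1P genes were higher than in saline mice, 1 was lower and 3 did not pass the test. The higher genes were Sphk1, Spns2, Sphk2, Sgpl1, S1pr2 and S1pr3, and the lower gene was S1pr1, the most abundant of the set. Among all 14005 tested genes 31.1% were called higher, 27.8% lower and 58.9% in either direction, so a call by itself is frequent in this comparison. The median log2 fold change was 0.54 over the S1P genes and 0.02 over all tested genes. The values of the groups did not overlap in 9 of the 10 genes, against 65.6% of all tested genes. When libraries were scaled to the 12 endothelial markers instead, the median of all genes moved to -1.002 and the S1P counts became 1 higher (Sphk1) and 6 lower. The 6 lower genes there were Sgpl1, Sgpp1, S1pr1, S1pr2, S1pr3 and S1pr4. Since a scaling factor moves every gene and the median together, distances from the median are fixed by construction, and they ran from 2.33 above it (Sphk1) to 0.25 below it (S1pr1). The edgeR p-values set the group difference against the variation between mice within groups, with variance estimates that draw on all tested genes.

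**Figure D1:**
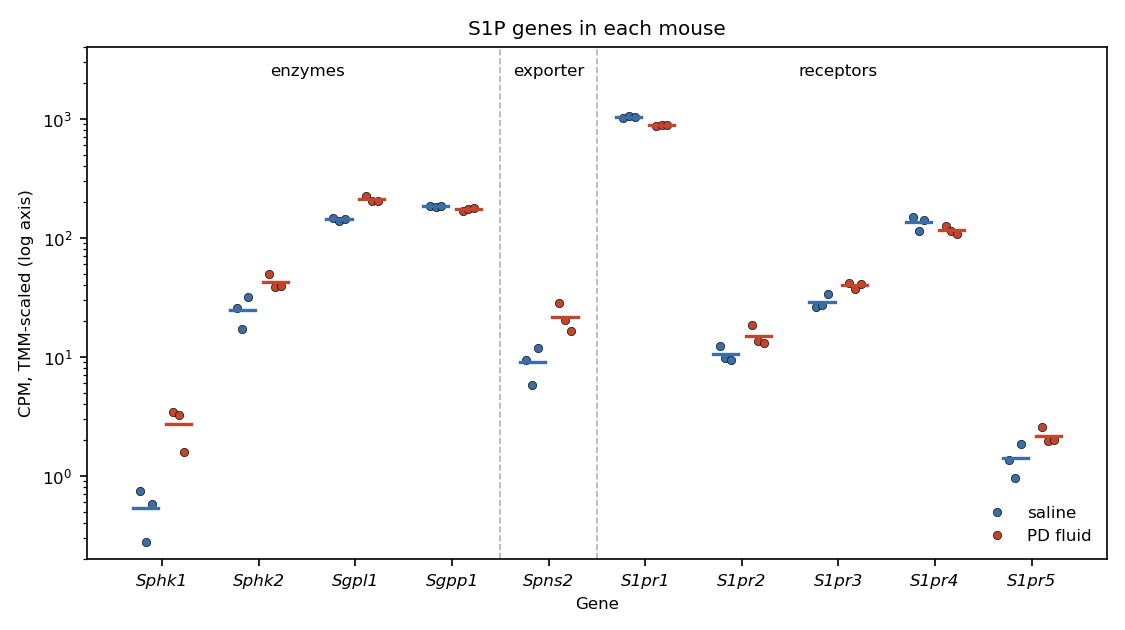
TMM-scaled CPM of each S1P gene on a log axis, with 1 point per mouse (saline blue, PD fluid red) and a bar at the group mean. S1pr1 lies highest in both groups, near 1030 CPM under saline and 878 CPM under PD fluid, and S1pr4 is the only one of the 10 genes in which the groups overlap.

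Sphk1, the inducible sphingosine kinase, had the lowest level of the set in saline mice and the largest fold change. It had 19, 6 and 14 reads in the 3 saline mice and 93, 77 and 35 reads in the 3 PD mice. On the CPM scale these were 0.742, 0.277 and 0.580 against 3.42, 3.23 and 1.59. Every PD mouse exceeded every saline mouse, although PD mouse 3 had less than either other PD mouse. The group means of 0.533 ± 0.236 and 2.75 ± 1.01 CPM differed by 2.34 on the log2 scale (SE 0.42, edgeR's quasi-likelihood test, adjusted p = 0.00068). This was a 5.06-fold difference with a 95% interval from 2.68 to 9.56, and remained called after GC correction (1.91, edgeR adjusted p = 0.00088) and under endothelial scaling (1.32, edgeR adjusted p = 0.0057). Median changes were 3.57 for mesothelial, 3.19 for fibroblast, 4.97 for neutrophil and 1.77 for macrophage and dendritic cell markers, and -1.17 for B cell markers. The part of these cells in the Sphk1 difference was not tested. The gene lies on chr11:116530925-116536674 (GRCm38, + strand), where 192 of its exonic bases (4.0%) overlap the antisense gene Gm29292. Of its 50-base stretches 4.5% also occur in transcripts of other genes.

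Sphk2, the other sphingosine kinase, is the more broadly expressed isoenzyme. It was at 25.9, 17.1 and 31.9 CPM in saline mice and at 49.4, 38.7 and 39.6 CPM in PD mice, with no overlap. The difference was 0.77 (SE 0.19, edgeR adjusted p = 0.0045) and fell to 0.40 (edgeR adjusted p = 0.014) after correction for GC content, while endothelial scaling gave -0.24 (edgeR adjusted p = 0.15). Sphk2 (chr7:45709467-45718002, - strand) shares exonic bases with neighbours on the opposite strand, 539 bases (12.96% of its exonic length) with Dbp and 373 bases (9.0%) with Rpl18. The strand setting of the counting is not given in the sources used here. Dbp, a circadian transcription factor gene, differed by 0.88 and Rpl18, a ribosomal protein gene, by -0.27, and their part in the Sphk2 count was not tested. Sphk1 made up 3.31 ± 0.671% of the summed kinase FPKM in saline mice and 8.65 ± 2.33% in PD mice.

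Of the degrading enzymes, Sgpl1 passed the test and Sgpp1 did not. Sgpl1, the lyase that splits S1P irreversibly (chr10:61098642-61147703, - strand), was at 147, 138 and 145 CPM in saline mice and at 225, 205 and 205 CPM in PD mice. It rose by 0.56 (SE 0.06, edgeR adjusted p = 3.0e-05), the smallest p of the set, and had a value of -0.46 under endothelial scaling, 0.54 above the median of all genes there. Sgpp1, the phosphatase that returns S1P to sphingosine (chr12:75714249-75735729, - strand), was at 185, 182 and 186 CPM against 168, 175 and 179 CPM. All PD mice were below all saline mice, yet the difference of -0.08 (95% interval -0.21 to 0.04) did not pass the test (edgeR adjusted p = 0.23), and it was called lower only under endothelial scaling (-1.10) among the alternatives run. The log2 ratio of summed kinase FPKM to summed lyase and phosphatase FPKM, which does not move with library scaling, was -3.36, -4.00 and -3.09 in saline mice and -2.50, -2.82 and -2.89 in PD mice. The summed kinase FPKM thus stayed below that of Sgpl1 and Sgpp1 in all 6 mice, by less in PD mice. The difference of 0.75 had p = 0.10 in a two-sided exact permutation test, which is the smallest p that 3 mice against 3 allow (adjusted p = 0.14 over 7 such measures). It was 0.49 without saline mouse 2. Unlike library scaling, the GC trend described below can move this ratio. Of 5 GC groups, Sphk1 and Sphk2 were in group 5 (highest), Sgpl1 in 3 and Sgpp1 in 2. After GC correction the fold changes were 1.91 (Sphk1), 0.40 (Sphk2), 0.53 (Sgpl1) and -0.05 (Sgpp1), and the ratio was not recomputed. The part of the exons that Sphk2 shares with Dbp and Rpl18 was also not tested here. The ratio leaves out Plpp1, Plpp2, Plpp3 and Sgpp2, described below, whose enzymes also dephosphorylate S1P. Their mean FPKM was 31.3, 2.16, 15.7 and 1.16 in saline mice and 70.3, 3.58, 37.2 and 0.648 in PD mice. A ratio that includes them was not computed, so the balance of all transcripts for making and degrading S1P is not shown.

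Spns2, the transporter that releases S1P from ECs and is known for supplying S1P to lymph (chr11:72451638-72489904, - strand), was higher in PD mice. It was at 9.33, 5.76 and 11.8 CPM in saline mice and at 28.4, 20.4 and 16.5 CPM in PD mice. The lowest PD mouse was above the highest saline mouse. The difference was 1.28 (SE 0.25, edgeR adjusted p = 0.0012), a 2.42-fold rise with a 95% interval from 1.66 to 3.53. It was 0.93 after GC correction (edgeR adjusted p = 0.00085), and 0.26 under endothelial scaling, where the call was lost (edgeR adjusted p = 0.25). Spns2 shares 131 exonic bases (3.2%) with Mybbp1a on the opposite strand. The lymphatic endothelial markers given above moved in the same direction by a median of 2.28, and their part in the Spns2 difference was not tested.

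S1pr1 was the dominant receptor and was slightly lower in PD mice. It was at 1006, 1061 and 1024 CPM in saline mice and at 871, 881 and 883 CPM in PD mice, so that the spread within each group was small beside the gap between them. The means of 1030 ± 28.1 and 878 ± 6.06 CPM differed by -0.23 (SE 0.06, edgeR adjusted p = 0.0046), which is a change of -14.7%. Under endothelial scaling the value was -1.25 (edgeR adjusted p = 2.5e-09). Its FPKM, 337 ± 6.995 in saline mice and 289 ± 5.91 in PD mice, was above that of 98.3% of tested genes. S1pr1 (chr3:115710433-115715072, - strand) shares no exonic bases with an annotated neighbour and no 50-base stretch with the transcripts of another gene. Ptprc fell by 0.69 and the B cell markers by a median of 1.17 in the same mice, and their part in the S1pr1 difference was not tested.

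S1pr2 and S1pr3, receptors that couple to G12/13 and Gq as well as Gi, rose. S1pr2 (chr9:20962361-20976781, - strand) was at 12.4, 9.73 and 9.40 CPM in saline mice and at 18.4, 13.6 and 13.2 CPM in PD mice. It differed by 0.52 (SE 0.16, edgeR adjusted p = 0.018), and the call was lost without PD mouse 1 (0.35, edgeR adjusted p = 0.092) and without saline mouse 3 (0.44, edgeR adjusted p = 0.062). S1pr3 (chr13:51408639-51422797, + strand, with 45 exonic bases shared with the lincRNA gene Gm32834) was at 26.4, 27.1 and 33.5 CPM against 41.9, 37.4 and 41.1 CPM. It differed by 0.47 (SE 0.11, edgeR adjusted p = 0.0030) and kept its call with any 1 mouse left out. Under endothelial scaling both values turned negative, to -0.50 for S1pr2 and -0.55 for S1pr3, which is 0.50 and 0.45 above the median of all genes there. Pericyte, smooth muscle and fibroblast markers also rose, and their part in these differences was not tested.

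S1pr4, known mainly from blood and immune cells, and S1pr5 did not pass the test. S1pr4 (chr10:81497747-81500132, - strand) was at 149, 114 and 142 CPM in saline mice and at 125, 115 and 108 CPM in PD mice, and saline mouse 2 fell among the PD mice. Its difference was -0.22 (95% interval -0.44 to 0.00, edgeR adjusted p = 0.081), and it was called lower without saline mouse 2 (-0.33, edgeR adjusted p = 0.0037), after GC correction (-0.63, edgeR adjusted p = 3.7e-06) and under endothelial scaling (-1.24, edgeR adjusted p = 3.2e-09). Without saline mouse 1 it was -0.13 (edgeR adjusted p = 0.34). S1pr5 (chr9:21242912-21248443, - strand, with 51 exonic bases shared with Gm48303) had 35, 21 and 45 reads in saline mice and 70, 47 and 44 reads in PD mice. At 1.37, 0.968 and 1.86 against 2.58, 1.97 and 1.99 CPM the groups did not overlap, but the difference of 0.64 (95% interval -0.03 to 1.30) missed the threshold (edgeR adjusted p = 0.091). It passed without saline mouse 3 (0.89, edgeR adjusted p = 0.043), was 0.44 without saline mouse 2 (edgeR adjusted p = 0.26) and was 0.34 after GC correction (edgeR adjusted p = 0.32).

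**Figure D2:**
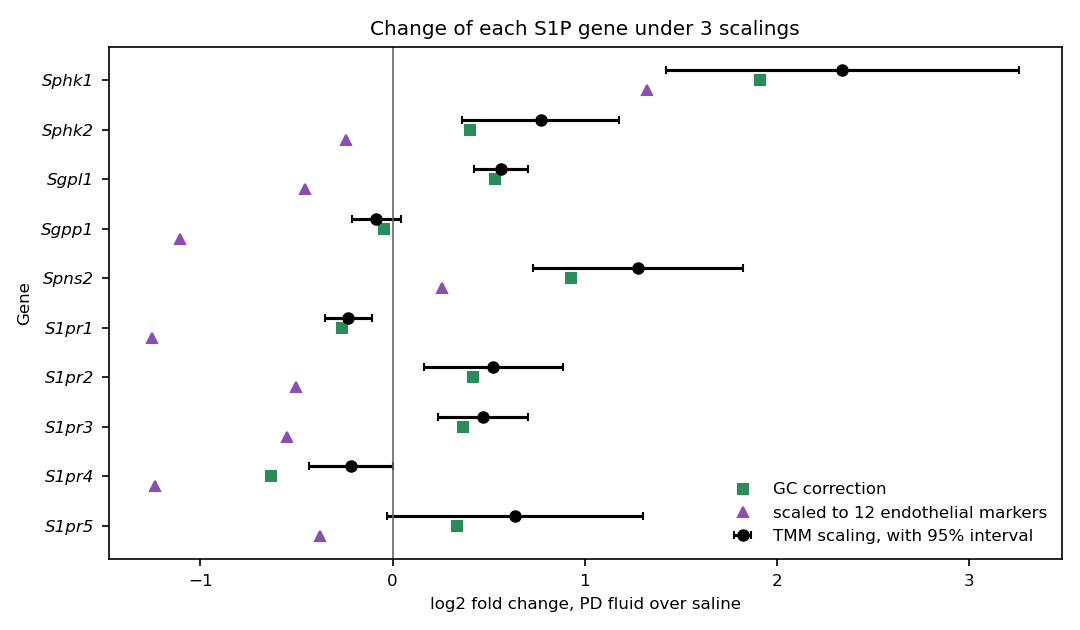
Log2 fold change of each S1P gene, PD fluid over saline (x axis), as fitted by edgeR with TMM scaling (black, with 95% interval), after GC correction (green) and scaled to 12 endothelial markers (purple). Sphk1 and Spns2 lie above 0 under all 3 scalings, whereas Sphk2, Sgpl1, S1pr2, S1pr3 and S1pr5 turn negative under endothelial scaling, where the median of all genes is -1.002.

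Compared per length, S1pr1 had the highest FPKM of the 10 genes in each mouse. In saline mice S1pr4 (56.4 ± 8.22 FPKM), Sgpp1 (55.3 ± 1.21) and Sgpl1 (35.1 ± 1.16) came next, and the values of S1pr4 and Sgpp1 overlapped. Sphk2 (8.12 ± 2.61 FPKM) overlapped with S1pr3 (6.47 ± 0.911), and Spns2 (2.77 ± 0.960) overlapped with S1pr2 (1.64 ± 0.257), while S1pr5 (0.559 ± 0.183) and Sphk1 (0.271 ± 0.0781) were lowest. In PD mice Sgpp1 (52.5 ± 0.380 FPKM), Sgpl1 (52.1 ± 4.501) and S1pr4 (48.9 ± 5.01) were not separated from their neighbours in that order. Below them followed Sphk2 (14.5 ± 2.65 FPKM), S1pr3 (9.03 ± 0.646), Spns2 (6.87 ± 1.95), S1pr2 (2.37 ± 0.521), Sphk1 (1.39 ± 0.480) and S1pr5 (0.877 ± 0.160), with overlap between S1pr3 and Spns2 and between Sphk1 and S1pr5.

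Summed over the 5 receptors, the FPKM was 401, 399 and 407 in saline mice and 363, 349 and 339 in PD mice, a log2 difference of -0.20 without overlap (exact permutation test, p = 0.10, adjusted p = 0.14). Unlike a share of it, this sum moves with library scaling and mostly follows S1pr1, which went from -0.23 to -1.25 under endothelial scaling. S1pr1 made up 83.8 ± 2.10% of that sum in saline mice and 82.6 ± 1.15% in PD mice (exact permutation test, p = 0.50, adjusted p = 0.58), and S1pr4 made up 14.0 ± 1.98% and 13.9 ± 0.955%. The S1pr1 difference was -0.05 percentage points without saline mouse 2, and -0.61 without PD mouse 1. The other 3 receptors shared the small remainder. S1pr3 held 1.61 ± 0.210% of the sum in saline mice and 2.58 ± 0.151% in PD mice, S1pr2 held 0.407 ± 0.0655% and 0.675 ± 0.125%, and S1pr5 held 0.139 ± 0.0441% and 0.250 ± 0.0375%. Each of these 3 shares was higher in every PD mouse than in every saline mouse, at the smallest p the design allows (exact permutation test, p = 0.10, adjusted p = 0.14).

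**Figure D3:**
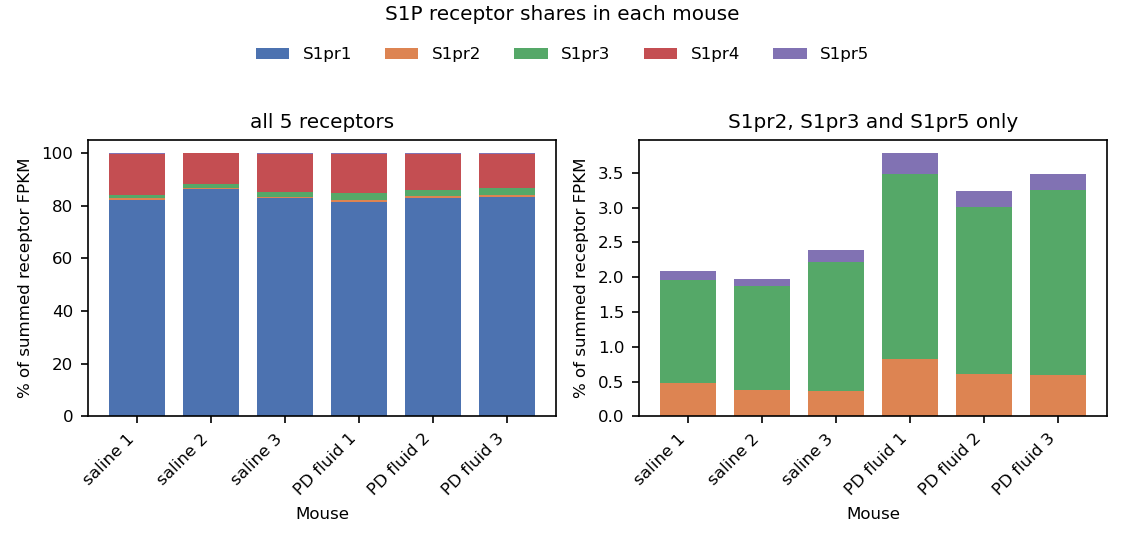
Share of each S1P receptor in the summed receptor FPKM of each mouse (stacked bars, percent), for all 5 receptors on the left and for S1pr2, S1pr3 and S1pr5 alone on an expanded axis on the right. S1pr1 fills 81.3% to 86.2% of every bar, and the S1pr2, S1pr3 and S1pr5 shares are each higher in all 3 PD mice.

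The GC content of the transcripts moved with the fold changes. The median log2 fold change of all tested genes went from -0.19 in the lowest to 0.35 in the highest of 5 equally sized groups by GC content. Sphk1, Sphk2, Spns2, S1pr4 and S1pr5 belonged to the highest GC group, with 57.1% to 59.6% GC, and lay 1.99, 0.42, 0.92, -0.57 and 0.28 from its median in that order. Sgpl1 and S1pr1 were in the middle GC group, and lay 0.56 and -0.23 from a median of 0.00. Saline mouse 2 stood apart from the other saline mice along the same axis, with a median deviation of 0.06 in the lowest and -0.11 in the highest GC group. It was the lowest saline mouse in 7 of the 10 S1P genes, and PD mouse 1 was the highest PD mouse in 8. The same counts over all tested genes were not computed, so these single out nothing about the S1P genes. Without saline mouse 2 the S1P genes gave 6 higher and 2 lower, S1pr4 being the addition, and the same count of 6 and 2 was found after GC correction.

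**Figure D4:**
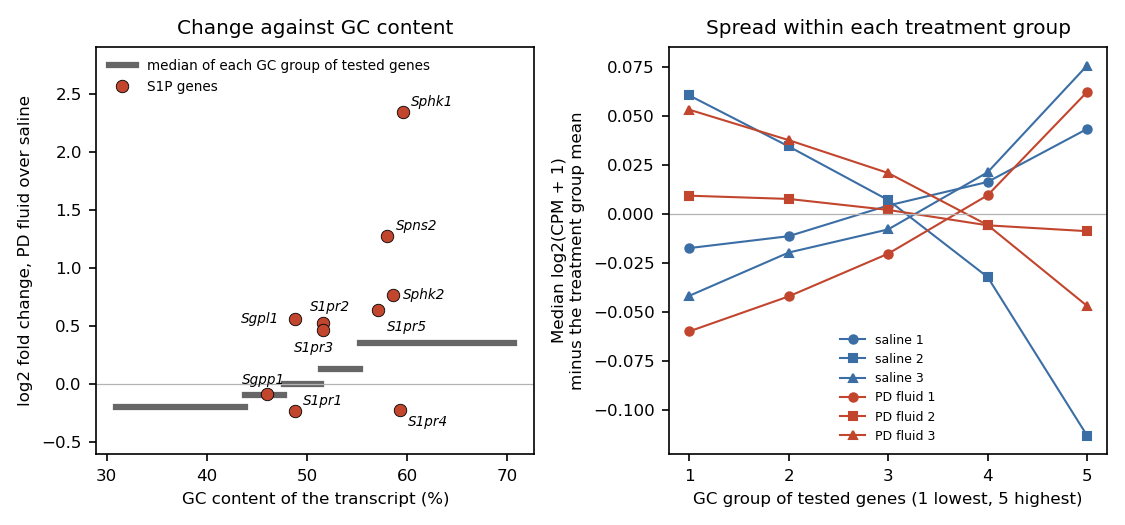
Left, log2 fold change of each S1P gene against the GC content of its transcript in percent, with grey bars at the median of each of 5 GC groups of all tested genes, which climbs from -0.19 to 0.35. Right, the median deviation of each mouse from its treatment group mean in each GC group, on the log2(CPM + 1) scale, where saline mouse 2 reaches -0.11 in the group of highest GC.

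The other genes of the pathway were counted in 4 lists, of which 51 of 57 genes were tested, 24 rose and 4 fell, and 30 did not overlap between groups. The shares called in either direction and without overlap are not above the 58.9% and 65.6% of all tested genes. By direction, the share that rose was above the 31.1% of all tested genes, and the share that fell was below their 27.8%. No test of the lists was run. The counts were 4 higher and 36 lower under endothelial scaling (all tested genes, 1089 and 10259), and 21 higher and 6 lower after GC correction. The sphingolipid supply list covers the enzymes that make, convert and break down ceramide and sphingomyelin, the sources of sphingosine. Of its 24 tested genes 11 rose, 2 fell and 11 did not pass, with a median of 0.13. The alkaline ceramidase gene Acer2, whose enzyme frees sphingosine from ceramide, had the largest change of the list. It was at 25.7, 27.7 and 34.2 CPM in saline mice and at 112, 118 and 123 CPM in PD mice, a difference of 2.01 (SE 0.10, edgeR adjusted p = 4.9e-08) that was 0.99 under endothelial scaling. The neutral sphingomyelinase gene Smpd3 (1.18), the ceramide synthase gene Cers6 (1.04) and the sphingomyelin synthase gene Sgms2 (1.04, with overlapping groups) followed, and these 3 were between 0.02 and 0.17 under endothelial scaling, where none was called. The Sgms2 call was also lost with DESeq2 (adjusted p = 0.068). Acer1, another alkaline ceramidase gene, and Sptlc3, a serine palmitoyltransferase subunit gene, had 0 reads in all 6 mice.

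Genes for the clearance and carriage of S1P included the lipid phosphate phosphatases, cell surface enzymes that dephosphorylate S1P and lysophosphatidic acid (LPA). Of 6 tested genes 3 rose and 1 fell, with a median of 0.68. Among all tested genes 31.1% were called higher and 27.8% lower, and counts over 6 genes single out nothing about this list. Plpp3 was at 51.4, 47.5 and 49.98 CPM in saline mice and at 120, 116 and 116 CPM in PD mice, a difference of 1.24 (SE 0.07, edgeR adjusted p = 7.5e-08). Plpp1 rose by 1.17 (edgeR adjusted p = 1.0e-06) and Plpp2 by 0.73 (edgeR adjusted p = 0.010). Plpp3 kept its call under endothelial scaling (0.22, edgeR adjusted p = 0.036), while Plpp1 had 0.15 and Plpp2 had -0.29 without a call. After GC correction Plpp2 was at 0.45 and no longer called (edgeR adjusted p = 0.11). Sgpp2, the second S1P phosphatase gene, went the other way with 3.63, 5.17 and 5.22 CPM against 2.58, 1.93 and 3.26 CPM, a difference of -0.85 (SE 0.24, edgeR adjusted p = 0.012).

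Among 15 S1P receptor partners, meaning G protein subunits, downstream effectors and receptor regulators, 7 rose, 1 fell and 7 did not pass. The share called is not above the 58.9% of all tested genes that were called. By direction, 31.1% of all tested genes were called higher and 27.8% lower. Gna12, the alpha subunit of G12, rose from 26.1 ± 4.83 to 66.8 ± 3.91 CPM, by 1.35 (SE 0.12, edgeR adjusted p = 5.1e-06), and was also called higher under endothelial scaling (0.34, edgeR adjusted p = 0.012). The arrestin gene Arrb1 (0.85), the Gi subunit gene Gnai1 (0.79) and the G13 subunit gene Gna13 (0.33) rose as well, with values of -0.17, -0.23 and -0.69 under endothelial scaling. The Gna13 rise in counts was not seen in the deposited FPKM, which was 24.2 ± 1.17 in saline mice and 23.9 ± 1.47 in PD mice. In the list of LPA receptors and autotaxin, a related lysophospholipid system, 3 of 6 tested genes rose and none of the other 3 passed the test. The receptor gene Lpar1 rose by 1.70 (SE 0.18, edgeR adjusted p = 1.7e-05), Enpp2, which encodes autotaxin, by 0.72 and Lpar5 by 0.55, with 0.68, -0.30 and -0.47 under endothelial scaling. The Lpar5 call was lost after GC correction (0.15, edgeR adjusted p = 0.46).

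**Figure D5:**
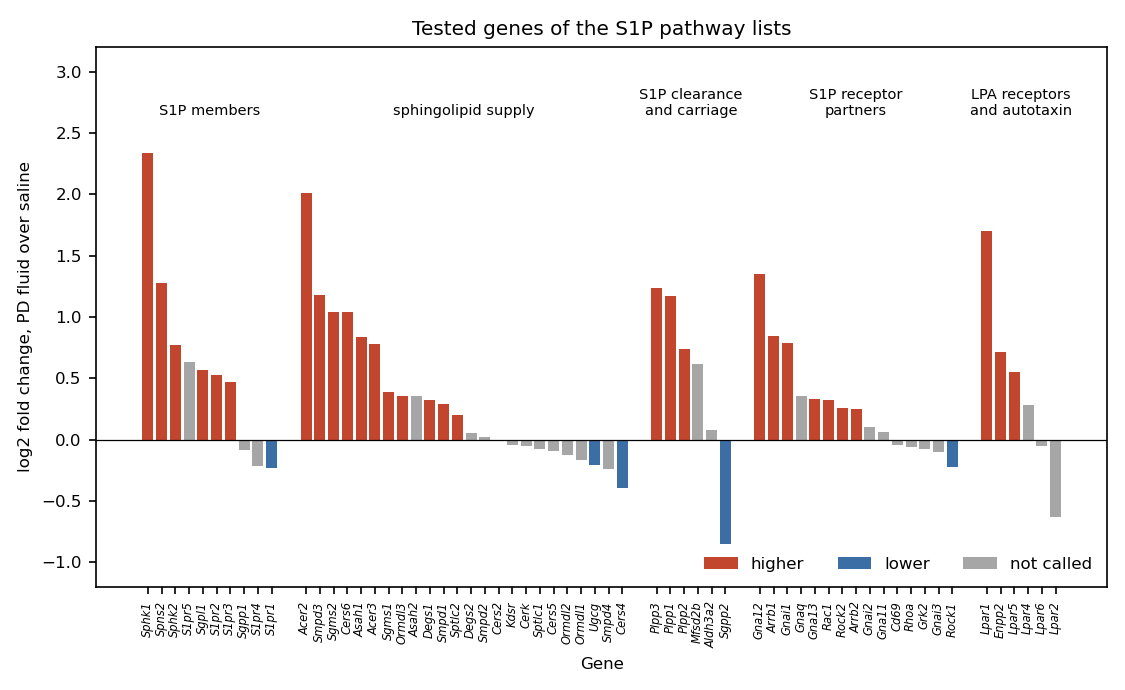
Log2 fold change, PD fluid over saline, of every tested gene among the S1P genes and the 4 pathway lists, ordered within each list, with TMM scaling. Red bars passed edgeR's test as higher, blue bars as lower and grey bars did not pass; Sphk1 (2.34) and Acer2 (2.01) are the tallest, and under endothelial scaling 36 of the pathway genes were called lower and 4 higher.

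Over the 6 libraries the log2(CPM + 1) profile of S1pr1 was most like those of Ripk3, a necroptosis kinase gene (Pearson r = 0.999), Recql, a DNA helicase gene (r = 0.999), and Nf1, a Ras regulator gene (r = 0.998), among 12911 genes compared. In all, 137 genes exceeded r = 0.99, so that these 3 are not singular. For Sgpp1 the closest were Erg28 (r = 0.998), Dnpep (r = 0.995) and Gm20716 (r = 0.994). These values describe 6 libraries that fall into 2 groups, and carry no test.

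Promoter sequences of the RefSeq annotation on GRCm38.p6 were found for 9 of the 10 genes, in 14 windows of the 250 bases before a start site. An enzyme, the exporter and a receptor, all called higher under TMM scaling and all with a window free of annotated exons, are shown 5′ to 3′ on the strand of the gene, with CACCC (or GGGTG, the same letters on the opposite strand) in capitals. CACCC boxes are letters that Krüppel-like and Sp family factors can bind.
Sphk1 (chr11:116532194-116532443, + strand): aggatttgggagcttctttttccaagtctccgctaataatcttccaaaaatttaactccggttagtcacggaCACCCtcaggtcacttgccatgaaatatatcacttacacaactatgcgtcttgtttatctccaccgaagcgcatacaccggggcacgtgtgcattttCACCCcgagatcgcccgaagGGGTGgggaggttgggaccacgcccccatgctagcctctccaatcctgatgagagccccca
Spns2 (chr11:72475028-72475277, - strand): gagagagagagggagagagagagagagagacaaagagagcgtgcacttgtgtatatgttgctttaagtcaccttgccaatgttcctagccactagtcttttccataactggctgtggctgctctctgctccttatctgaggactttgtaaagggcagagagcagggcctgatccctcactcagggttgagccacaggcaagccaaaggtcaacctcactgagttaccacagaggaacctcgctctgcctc
S1pr3 (chr13:51408368-51408617, + strand): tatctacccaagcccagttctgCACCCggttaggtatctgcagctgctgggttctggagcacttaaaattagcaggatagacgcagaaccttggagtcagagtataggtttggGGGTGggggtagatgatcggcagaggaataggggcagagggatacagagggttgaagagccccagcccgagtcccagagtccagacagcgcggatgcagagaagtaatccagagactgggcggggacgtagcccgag
The Sphk1 window is 1 of 5 for that gene, and the other 4 overlap annotated Sphk1 exons. The Sphk1 and Spns2 windows shown lie inside the gene spans given above, before internal start sites. Their motif counts therefore do not describe the sequence before the annotated 5′ end of either gene. The S1pr3 window lies before the annotated start of its gene. CACCC occurred 3 times in the Sphk1 window shown, 0 times in the Spns2 window and 2 times in the S1pr3 window, against at least once in 52.0% of 32851 promoter windows of the same length. The Sphk1 window also held 1 CACGTG (6.02% of all windows) and the S1pr3 window 1 GGGCGG (32.7%), both strands being searched for each motif. TATAAA, present in 12.4% of all windows, was in none of the 3 shown. The other Sphk1 windows held CACCC 0, 4, 3 and 3 times, and the one without CACCC held 1 TATAAA. Among them chr11:116532201-116532450 overlaps the window shown, and chr11:116531587-116531836 overlaps chr11:116531661-116531910, so these counts share sites.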

How the data were processed

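RNA sequencing libraries of sorted cells labelled as peritoneal ECs, from 3 saline and 3 PD mice, were made with an oligo(dT) and NEBNext Ultra protocol. The authors deposited raw read counts and FPKM values per gene and mouse. Every column of sample values matched a label, leaving 0 unassigned. Their group means, log2 ratio, p-value and FDR columns hold the authors' own comparison and were not used. The submitters' processing notes name fastp 0.18.0, Bowtie2 2.2.8, HISAT2, StringTie and RSEM, with no role or order. The genome build and the strand setting are not given in the sources used here, so positions were taken from GRCm38 and GENCODE M21 by Ensembl identifier (22128 of 22183 matched).

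Counts were tested with edgeR 4.0.16 in R 4.3.3 (filterByExpr, TMM, quasi-likelihood test, no covariate), with Benjamini-Hochberg adjustment over 14005 genes and a threshold of 0.05. For FPKM shares and ratios the groups were compared with exact permutation tests (two-sided). Alternatives were a replicate block, no filter, RLE scaling, DESeq2 1.42.0, limma-voom (limma 3.58.1), scaling to the 12 endothelial markers and leaving out each mouse. A GC correction, a lowess curve per library as an offset, was chosen after seeing the data. Scripts were tested on simulated data. Tables and figures used Python 3.11.15, pandas 2.3.3, numpy 2.4.6, scipy 1.17.1 and matplotlib 3.10.9.

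Named are all 10 S1P genes, the 4 called genes of largest change in each pathway list, Pecam1, Cdh5, Ptprc, and the 3 genes most like the most abundant receptor and the most abundant enzyme or transporter. Genes at 0 reads and neighbours with shared exons were named after their values were seen. The S1P genes and all lists were chosen with earlier results of these data known. With 21973426 to 26374292 reads per mouse, precision is lowest for Sphk1 and S1pr5. Among lists not detailed elsewhere, neutrophil markers rose in 4 of 5 tested, mast cell markers in 6 of 6, T and NK cell markers in 2 of 10 (2 fell), and red cell and platelet markers in 2 of 7 (1 fell).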

Additional observations from a re-analysis of the deposited data

How the results depend on the processing

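Over 13 alternatives for each of the 10 S1P genes, 117 fold changes kept their direction and their side of the threshold. Sphk1 and S1pr1 did so in all 13 alternatives each, with edgeR, DESeq2 or limma adjusted p up to 0.0057 and 0.032. The 5 reversals all came from endothelial scaling: Sphk2 (-0.24), Sgpl1 (-0.46), S1pr2 (-0.50), S1pr3 (-0.55) and S1pr5 (-0.38). That scaling gave 1 S1P gene higher and 6 lower, 4 pathway genes higher and 36 lower, and 1089 of all tested genes higher and 10259 lower. By construction it sets the 12 endothelial markers, 11 of which rose under TMM, to no change on average. Whether the markers or the other genes give the better reference was not tested. GC correction gave 2 S1P genes lower, and the cause was not tested.

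With each mouse left out in turn, 5 to 6 S1P genes were higher and 1 to 2 lower, 22 to 25 pathway genes were higher and 2 to 4 lower, and 3852 to 4333 of all tested genes were higher and 3121 to 3685 lower. The count of 2 lower S1P genes came without saline mouse 2 and that of 2 lower pathway genes without PD mouse 2. The log2 ratio of kinase FPKM to Sgpl1 and Sgpp1 FPKM differed by 0.49 (without saline mouse 2) to 0.94. The S1pr1 share of receptor FPKM differed by -2.01 to -0.05 percentage points (the latter without saline mouse 2). The difference in the S1pr4 share of receptor FPKM ranged from -1.204 to 0.70 percentage points, and was positive without saline mouse 1 (0.70), saline mouse 3 (0.23) or PD mouse 3 (0.36).

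The replicate numbers shared by the groups only number the mice: deviations of same-numbered mice correlated at 0.19, 0.07 and -0.27, and not every mouse correlated best with its own number, so the mice were not treated as pairs. With a replicate block 6 S1P genes were higher and 1 lower, as without it. Depth limits Sphk1 and S1pr5, which had 6 to 93 and 21 to 70 reads per mouse.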
